A study of Mus musculus with 9 samples.

Results

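The 10 genes described here are immediate early genes: Fos, Fosb, Jun, Junb, Atf3, Egr1, Nr4a1, Ier2, Ier3 and Dusp1. They were chosen by gene symbol, as the rows of the deposited array table whose platform annotation gives 1 of these names, out of 19505 genes named in the table. All 10 were found, each with 1 transcript cluster (the set of probes that reads 1 gene). Their values were followed over 9 arrays of white adipose tissue from male mice, in 3 groups of 3. The wild type group (C57BL/6JHamSlc-+/+) and the ob/ob vehicle group (C57BL/6JHamSlc-ob/ob) were given vehicle. The ob/ob VE group, also C57BL/6JHamSlc-ob/ob, was given 100 mg/kg of VE, a Vigna umbellata (rice bean) extract, by oral gavage for 6 weeks. The mice were 6 weeks old when obtained, and every group ate standard chow over a study of 42 days. The ob/ob allele is a germline loss of leptin in the whole body, carried by both ob/ob groups, and there was no wild type group with VE among these arrays. The depot and the vehicle were not given in the sources used here. All mice were under isoflurane when blood was taken at the end of the study, and the time from there to the removal of the tissue was not given.

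Immediate early genes are switched on within minutes of a stimulus, without new protein synthesis, by transcription factors that already sit in the cell: the serum response factor SRF with its Elk partners, and CREB. Their own products are mostly transcription factors, which pass the signal on to later genes, together with a few inhibitors that end it, such as the phosphatase Dusp1. In fat they are known to respond to growth factors, to inflammatory signals and also to handling, anaesthesia and dissection of the tissue.

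Every value is the deposited signal on the log2 scale, so that a difference of 1 is a change of 2-fold, and probes of different genes cannot be compared in level. Array medians lay between 6.11 and 6.26. Of 12 adipocyte markers, 11 were measured and all 11 read above the median of every array. Markers of macrophages and epithelium, and some of smooth muscle, differed between wild type and ob/ob tissue. Most markers of the other cell types listed did not pass the test in ob/ob vehicle against wild type. There 0 of 9 endothelial, 0 of 7 stromal progenitor, 0 of 4 B cell and 0 of 1 erythroid markers passed. Of T and NK cell markers 1 of 7 was higher, of neutrophil markers 1 of 6 was higher, and of mesothelial markers 1 of 6 was lower. The 14 measured macrophage markers averaged 7.66 to 9.03 on the wild type arrays and 13.1 to 13.7 on the 6 ob/ob arrays, and 13 of the 14 passed the test as higher in the ob/ob vehicle group. The 14 epithelial markers averaged 9.80, 10.2 and 7.90 on wild type arrays 1, 2 and 3 and 4.55 to 5.004 on the ob/ob arrays, with 13 of 14 lower in the ob/ob vehicle group. The 9 smooth muscle markers averaged 11.9, 15.9 and 8.82 on the same wild type arrays, against 8.21 to 8.81 on the ob/ob arrays. Of these, 3 of 9 passed as lower in the ob/ob vehicle group, a count that ran from 0 to 8 with 1 array left out. Wild type arrays 1 and 2 thus stand apart from wild type array 3 in both lists. Wild type array 3 also had the higher mean of the adipocyte markers (16.4 against 15.3 and 15.0) and of the macrophage markers (9.03 against 7.66 and 7.92). Many of the calls, counts and medians below are also given without wild type arrays 1 and 2, which leaves 1 wild type array. Without them 12 of the 14 macrophage markers were still higher in ob/ob vehicle and 12 of the 14 epithelial markers still lower. In bulk tissue, fewer cells of a type and less RNA per cell cannot be told apart. The part of these other cells in the values of the immediate early genes was not tested.

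The genes did not move as 1 block between wild type and ob/ob tissue. Atf3 and Dusp1 were above the wild type level in the ob/ob vehicle group, by 14.96-fold and 3.25-fold, and the other 8 did not pass the test (limma, 3 arrays a group, adjusted p under 0.05 over 19572 clusters). The call of Dusp1 was at the threshold (adjusted p = 0.0495) and was lost when any 1 array except ob/ob vehicle array 3 was left out. The 2 of 10 that passed as higher stand beside 9.02% of all clusters, and the 0 of 10 that passed as lower beside 5.05%, or 14.1% in both directions together. With VE, Atf3 was again higher than in wild type, by 10.6-fold, and Egr1 and Ier2 were lower, by 2.85-fold and 1.91-fold. These 3 of 10 stand beside 20.0% of all clusters in that comparison (12.4% higher and 7.58% lower). The calls of Egr1 and Ier2 were lost when any 1 VE array was left out. Between VE and ob/ob vehicle 0 of 10 passed, beside 0.0255% of all clusters, and 0 of 10 had an unadjusted limma p under 0.05, beside 4.56%. In a single test of the 3 groups (limma's moderated F), Atf3 passed, 1 of 10 beside 15.7% of all clusters. Each of the 3 groups enters more than 1 of these comparisons, so the comparisons are not independent.

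**Figure D1:**
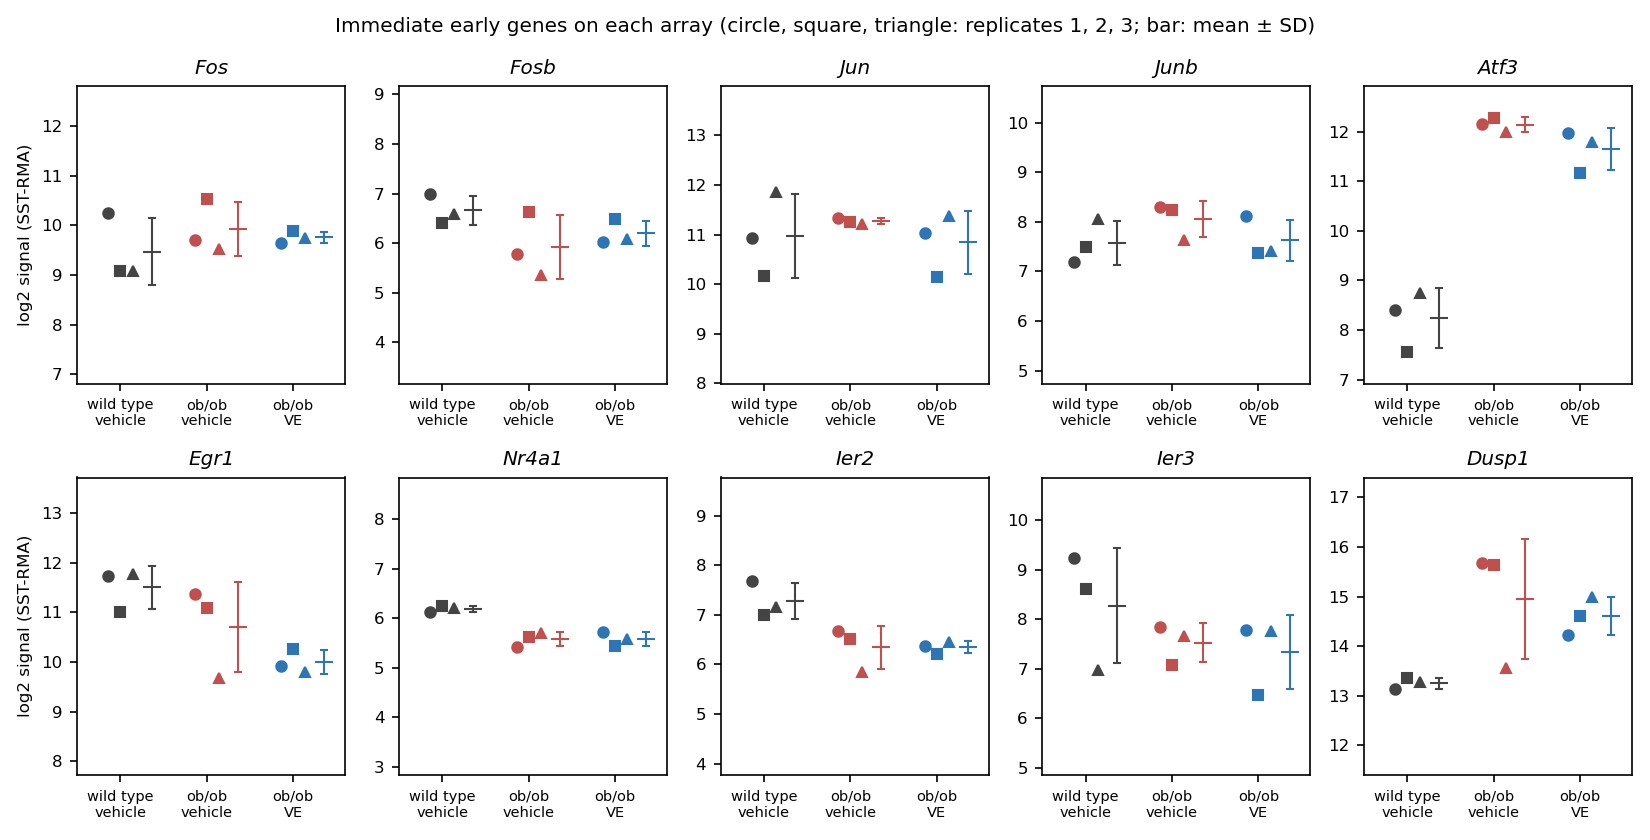
Deposited log2 signal of the 10 immediate early genes on each of the 9 arrays, in 1 panel per gene with the 3 groups on the x axis; circles, squares and triangles are arrays 1, 2 and 3 of a group, and the bar is the group's mean ± SD (n = 3). All 6 ob/ob values of Atf3 lie between 11.16 and 12.28, above the 3 wild type values, while Fos and Jun overlap between all groups.

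Atf3 encodes a stress-induced basic leucine zipper factor of the ATF/CREB family that pairs with Jun proteins. Its signal was 8.41, 7.56 and 8.74 on the wild type arrays, 12.15, 12.28 and 11.99 with ob/ob and vehicle, and 11.97, 11.16 and 11.80 with VE. The lowest ob/ob array was above the highest wild type array by more than the whole wild type range. The difference of ob/ob vehicle from wild type was 3.90 ± 0.334 (SE of the log2 difference, n = 3 and 3; adjusted p = 6.83e-05), with a 95% interval of 3.16 to 4.65. That of VE from wild type was 3.41 ± 0.334 (adjusted p = 1.47e-04). Both calls held with every array left out in turn and without wild type arrays 1 and 2. The 3 VE values were all below the 3 ob/ob vehicle values, by a gap of 11.97 against 11.99. The difference of VE from ob/ob vehicle was -0.50 ± 0.334 with an interval of -1.24 to 0.25, and it did not pass (adjusted p = 0.99995). Atf3 was the 1 gene of the 10 whose VE and ob/ob vehicle values did not overlap, beside 12.6% of all clusters (6.79% below and 5.77% above). On the same arrays the macrophage marker list differed between genotypes in the same direction, with a mean of 7.66 to 9.03 in wild type and 13.1 to 13.7 in ob/ob. The epithelial marker list differed in the other direction, with a mean of 7.90 to 10.2 in wild type and 4.55 to 5.004 in ob/ob. The part of either list in the Atf3 signal was not tested.

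Jun, which encodes the central partner of AP-1 dimers, is set here beside Atf3 because their values varied together within the groups. Jun read 10.92, 10.16 and 11.85 in wild type, 11.34, 11.25 and 11.22 in ob/ob vehicle, and 11.03, 10.14 and 11.37 with VE. The 3 ob/ob vehicle arrays agreed closely (SD 0.062), while wild type and VE spread over more than 1 unit and enclosed them. The difference of ob/ob vehicle from wild type was 0.29 ± 0.430 (adjusted p = 0.713) and that of VE from ob/ob vehicle -0.42. After each group's mean was taken away, Jun and Atf3 had the highest Pearson r of the 45 pairs of these genes, 0.916 over the 9 arrays. This is a description: the arrays share their group means and their normalization. Array 2 was the lowest for both genes in wild type and with VE. The 250 bases upstream of each gene's start are printed because both genes are known targets of CREB/ATF and AP-1 proteins, read 5′ to 3′ on the strand of the gene from RefSeq's promoters on GRCm38.p6; capitals mark a CRE core (CGTCA, on either strand; CRE is the site bound by CREB) in Atf3 and the CRE-like TGACATCA in Jun.
Atf3, chr1:191183334-191183583, minus strand: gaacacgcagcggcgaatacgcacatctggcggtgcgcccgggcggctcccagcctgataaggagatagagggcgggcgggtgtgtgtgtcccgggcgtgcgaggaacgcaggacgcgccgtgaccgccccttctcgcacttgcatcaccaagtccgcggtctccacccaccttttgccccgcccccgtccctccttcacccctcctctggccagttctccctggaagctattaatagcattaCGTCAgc
Jun, chr4:95052223-95052472, minus strand: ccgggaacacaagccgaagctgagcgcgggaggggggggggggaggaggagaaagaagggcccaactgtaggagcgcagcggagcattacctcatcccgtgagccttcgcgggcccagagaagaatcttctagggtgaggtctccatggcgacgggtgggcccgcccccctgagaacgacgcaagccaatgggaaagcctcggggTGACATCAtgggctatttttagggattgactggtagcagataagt
The CRE core of Atf3 lies at positions -7 to -3, counted back from the first base of the gene, and 17.8% of the 32851 promoters in the table hold this motif on at least 1 strand. The CRE-like letters of Jun lie at -45 to -38 and are found in 2.93% of the promoters. That motif was added to the search after the sequence was seen. These matches are letters in a window, and no binding was measured.

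Fos encodes the founding AP-1 subunit, which binds DNA only as a dimer with a Jun protein. Its signal was 10.25, 9.08 and 9.08 in wild type, 9.71, 10.54 and 9.52 in ob/ob vehicle, and 9.65, 9.88 and 9.75 with VE. Wild type array 1 was among the highest of all and its 2 group mates the lowest, and the groups overlapped. The difference of ob/ob vehicle from wild type was 0.45 ± 0.370 (adjusted p = 0.482) and that of VE from ob/ob vehicle -0.16. The VE arrays had the narrowest spread of the 3 groups (SD 0.115 against 0.676 in wild type and 0.542 in ob/ob vehicle). Fosb, a close relative that also needs a Jun partner, read 6.99, 6.40 and 6.59 in wild type, 5.78, 6.62 and 5.35 in ob/ob vehicle, and 6.03, 6.49 and 6.08 with VE. Array 2 of the ob/ob vehicle group lay inside the wild type range, and the difference of -0.74 ± 0.334 did not pass (adjusted p = 0.176). With VE the difference from wild type was -0.46 (adjusted p = 0.362). Within groups Fos and Fosb varied together (r = 0.857 over 9 arrays): both were highest on wild type array 1, ob/ob vehicle array 2 and VE array 2. Fosb was above the array median on 5 of the 9 arrays only, so its low values lie in the dim part of the array, and detection calls were not used here.

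Junb encodes an AP-1 subunit that often restrains Jun. Its signal was 7.19, 7.49 and 8.06 in wild type, 8.29, 8.24 and 7.63 in ob/ob vehicle, and 8.11, 7.37 and 7.41 with VE. A pair of ob/ob vehicle arrays was above every wild type array, and the third was not. The difference of ob/ob vehicle from wild type was 0.47 ± 0.320 (adjusted p = 0.383), and VE lay -0.42 from ob/ob vehicle and 0.05 from wild type. The promoter of Fos is shown as the textbook case of this class of gene; capitals mark 2 CRE cores, read as TGACG, and the TATA box, TATAAA.
Fos, chr12:85473640-85473889, plus strand: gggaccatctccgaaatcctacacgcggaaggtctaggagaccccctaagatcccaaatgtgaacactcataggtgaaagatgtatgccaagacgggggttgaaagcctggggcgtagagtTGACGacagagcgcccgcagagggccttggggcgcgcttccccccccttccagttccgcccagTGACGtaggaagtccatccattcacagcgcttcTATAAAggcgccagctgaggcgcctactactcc
The CRE cores lie at positions -129 to -125 and -66 to -62 and the TATA box at -33 to -28. Of the 10 genes, 8 had a promoter in the table (not Egr1 and Ier2). The CRE core was in 6 of these 8, those of Atf3, Fosb, Junb, Fos, Nr4a1 and Dusp1, and in 17.8% of all promoters. The windows of Fosb and Nr4a1 belong to starts inside the span given for those genes. TATAAA was in 1 of the 8 and in 12.4% of all promoters. The AP-1 motif TGANTCA was in 0 of the 8 and in 6.75% of all promoters. The CArG box bound by SRF (CC, then 6 letters A or T, then GG) was in 0 of the 8 and in 1.47% of all. An EGR motif, GCGTGGG or GCGGGGG, was in 5 of the 8 (Fosb, Junb, Nr4a1, Dusp1 and Ier3) and in 13.0% of all. All motifs were searched on both strands, and a motif that lies further upstream would not be seen in 250 bases.

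Egr1 encodes a zinc finger transcription factor induced by serum and growth factors. It read 11.73, 11.01 and 11.77 in wild type, 11.37, 11.08 and 9.67 in ob/ob vehicle, and 9.92, 10.26 and 9.79 with VE. All 3 VE values were below all 3 wild type values, while in ob/ob vehicle array 3 was below the VE values and arrays 1 and 2 were inside the wild type range. The difference of VE from wild type was -1.51 ± 0.421 (adjusted p = 0.0308). That of ob/ob vehicle from wild type was -0.80 ± 0.421 (adjusted p = 0.253). The direct comparison of VE with ob/ob vehicle gave -0.72, with an interval of -1.66 to 0.22, and did not pass, so a pass in 1 ob/ob group and not in the other does not show that VE and vehicle differ. The call against wild type was lost without wild type array 1 (adjusted p = 0.0842), without wild type array 3 (0.0578), without any 1 of the 3 VE arrays (0.0628 to 0.0965), and without wild type arrays 1 and 2 together (difference -1.78, adjusted p = 0.0686).

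Nr4a1 encodes an orphan nuclear receptor that is itself induced as an early gene and that is active without a known ligand. Its signal was 6.13, 6.25 and 6.20 in wild type, 5.43, 5.62 and 5.70 in ob/ob vehicle, and 5.73, 5.44 and 5.58 with VE. All 6 ob/ob values were below all 3 wild type values, and the ob/ob groups had the same mean, 5.58. The difference of each ob/ob group from wild type was -0.61 ± 0.203, with an adjusted p of 0.0757 for ob/ob vehicle and 0.0601 for VE, so neither passed. The values are dim, above the array median on 1 of the 9 arrays. The spread between arrays of a group (pooled SD 0.121) was smaller than that of all but 1.09% of the clusters.

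Ier2 encodes a small nuclear protein of the early response with no known DNA-binding domain. Its signal was 7.69, 6.99 and 7.15 in wild type, 6.67, 6.52 and 5.85 in ob/ob vehicle, and 6.37, 6.21 and 6.45 with VE. Every ob/ob array read below every wild type array. Both ob/ob groups lay -0.93 ± 0.284 from wild type, which passed for VE (adjusted p = 0.0436) and not for ob/ob vehicle (adjusted p = 0.0560), and VE lay within 0.01 of ob/ob vehicle. The call for VE was lost when array 1 of wild type (adjusted p = 0.122), array 2 of ob/ob vehicle (0.0625) or any VE array (0.0889 to 0.130) was left out. Without wild type arrays 1 and 2 together it was also lost (difference -0.81, adjusted p = 0.184). Ier3, an unrelated protein known for its part in cell survival despite the similar name, read 9.24, 8.61 and 6.98 in wild type, 7.84, 7.08 and 7.66 in ob/ob vehicle, and 7.78, 6.48 and 7.77 with VE. Wild type arrays 1 and 2 were the highest of all 9, and wild type array 3 was the second lowest. The difference of ob/ob vehicle from wild type was -0.75 ± 0.558 (adjusted p = 0.433). Ier3 followed the split inside the wild type group. Without wild type array 3 it passed as lower in ob/ob vehicle (-1.40, adjusted p = 0.0494) and with VE (-1.58, adjusted p = 0.0245). Without wild type arrays 1 and 2 the difference was 0.55 and 0.36 instead. Jun ran the other way, at 10.92 and 10.16 on wild type arrays 1 and 2 and 11.85 on wild type array 3. Wild type arrays 1 and 2 are those with the high epithelial and smooth muscle markers, whose part in the Ier3 and Jun values was not tested.

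Dusp1 encodes a nuclear phosphatase that removes the activating phosphates from p38, JNK and ERK kinases. It read 13.13, 13.35 and 13.27 in wild type, 15.67, 15.63 and 13.55 in ob/ob vehicle, and 14.23, 14.61 and 15 with VE. All 6 ob/ob arrays were above all 3 wild type arrays, but ob/ob vehicle array 3 was close to the wild type values and its group mates were the highest of all. The difference of ob/ob vehicle from wild type was 1.70 ± 0.502 (interval 0.58 to 2.82; adjusted p = 0.0495), that is, at the threshold. It was lost when any 1 of the 9 arrays except ob/ob vehicle array 3 was left out (adjusted p 0.0650 to 0.178), and without wild type arrays 1 and 2 together (1.68, adjusted p = 0.191). Without ob/ob vehicle array 3 it was 2.40 (adjusted p = 0.00120). The difference of VE from wild type, 1.36 ± 0.502, did not pass (adjusted p = 0.0842), and with array 3 of the ob/ob vehicle group left out, which enters through the shared spread, it did (adjusted p = 0.00760). VE lay -0.34 from ob/ob vehicle, with an interval of -1.46 to 0.78, which holds falls and rises alike. The promoter of Dusp1 holds the 1 full CRE among the 8 promoters found, TGACGTCA, which is shown in capitals with a further CRE core and an EGR motif, read as CCCCCGC.
Dusp1, chr17:26508473-26508722, minus strand: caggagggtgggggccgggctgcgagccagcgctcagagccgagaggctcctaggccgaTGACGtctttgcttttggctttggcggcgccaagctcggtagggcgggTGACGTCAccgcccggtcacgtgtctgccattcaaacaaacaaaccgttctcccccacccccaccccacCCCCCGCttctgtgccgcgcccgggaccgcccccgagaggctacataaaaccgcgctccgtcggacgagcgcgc
The full CRE lies at positions -143 to -136 and contains the core on each strand; 1.55% of all promoters hold it. The other CRE core lies at -191 to -187 and the EGR motif at -74 to -68.

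**Figure D2:**
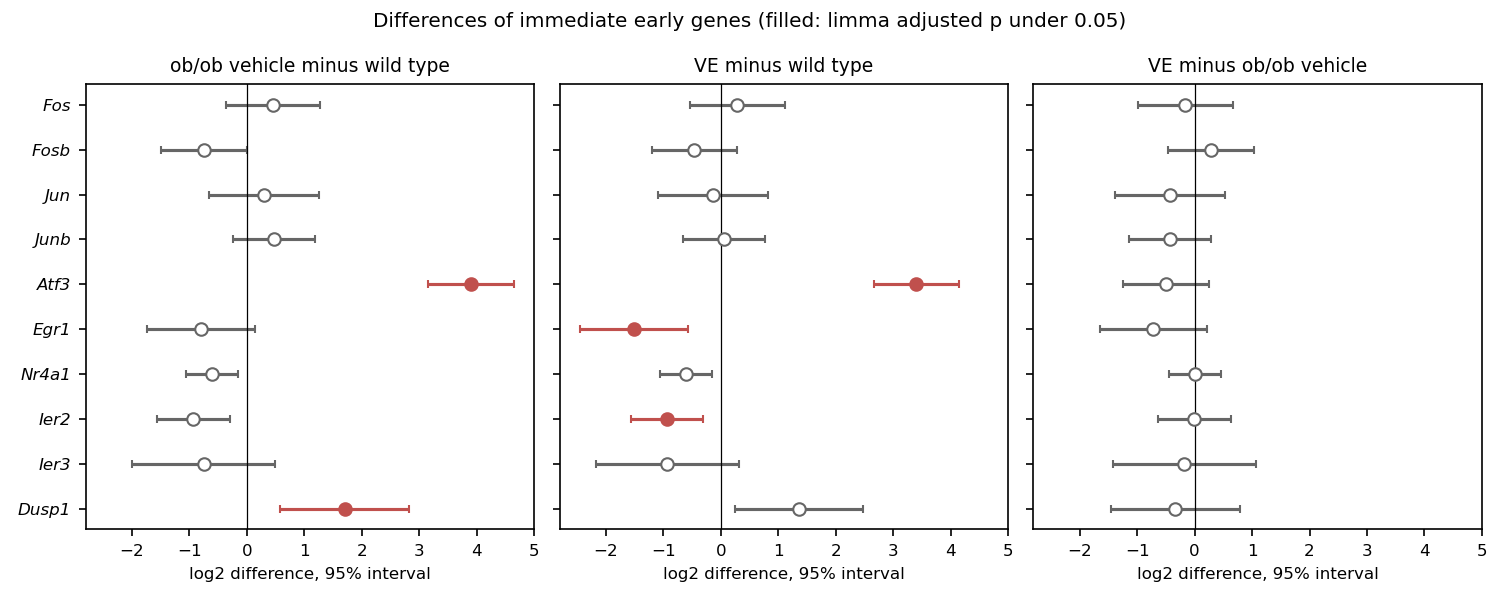
Log2 difference of each immediate early gene in the 3 comparisons, with the 95% interval of the limma fit as a bar and a filled point where the adjusted p was under 0.05. Atf3 stands alone at 3.90 and 3.41 against wild type, Dusp1 follows at 1.70 and 1.36, and every interval of VE against ob/ob vehicle includes 0.

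By counts, 5 of the 10 genes were above 0 and 5 below 0 in ob/ob vehicle against wild type, where 47.4% of all clusters were above 0. The median difference was -0.16, beside -0.04 over all clusters tested, and -0.29 without wild type arrays 1 and 2. For VE against wild type the median was -0.295, beside -0.07 over all clusters, and -0.41 without those arrays. Against wild type, 4 of the 10 had values that did not overlap with ob/ob vehicle, Atf3 and Dusp1 above and Nr4a1 and Ier2 below, beside 28.9% of all clusters (15.7% above and 13.1% below). With VE, 5 of the 10 did not overlap with wild type, the same 4 and Egr1 below, beside 37.2% (19.5% above and 17.7% below). By an unadjusted limma p under 0.05, 4 of the 10 differed from wild type in ob/ob vehicle, beside 28.4% of all clusters, and 5 of the 10 with VE, beside 33.9%. At the submitters' threshold (that p and a fold over 1.1), 2 were higher and 2 lower in ob/ob vehicle, beside 15.7% and 12.7%, and 2 were higher and 3 lower with VE, beside 18.3% and 15.6%. Between VE and ob/ob vehicle 0 passed it in each direction, beside 2.91% and 1.66%. Between VE and ob/ob vehicle, 8 of the 10 were below 0, Fosb was above 0 and Nr4a1 was at 0.00. The median of that comparison was -0.26, beside -0.02 over all clusters, of which 46.5% were above 0. The 8 genes below 0 do not count as 8 separate observations, since they are read on the same 6 arrays and some of them varied together within groups.

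Much of the variation was between arrays of the same group. In ob/ob vehicle, array 3 was the lowest of the 3 for 8 of the 10 genes. It was 1.40 below its group mean for Dusp1, 1.04 below for Egr1 and 0.57 below for Fosb, while Nr4a1 was at its highest there. In wild type and with VE, array 2 was the lowest for 6 of the 10, with Fos in wild type tied between arrays 2 and 3 (9.08). The pooled SD between arrays of a group was 0.832 for Ier3, larger than that of 94.0% of all clusters, 0.737 for Dusp1 (91.5%), 0.612 for Jun (85.4%) and 0.597 for Egr1 (84.3%), where the median cluster had 0.375. Among the 45 pairs of genes, 31 had an r above 0 after removal of the group means, 10 above 0.5 and 2 below -0.5, with a median of 0.18. After Jun with Atf3 and Fos with Fosb, the most alike pairs were Egr1 with Dusp1 (r = 0.780) and Egr1 with Ier2 (r = 0.776), and in both pairs ob/ob vehicle array 3 was the lowest of its group for both genes. Egr1 with Nr4a1 was the most opposed pair (r = -0.687). Ier2 followed the mean of all 10 genes most closely (r = 0.935) and Nr4a1 least (r = -0.291). Each gene's own values are part of that mean, which raises its r, so these are not comparable with the r of other genes. Of 10096 other clusters brighter than the array median, the 5 whose deviations were most like that mean were Ccdc134 (r = 0.974), Asb6 (0.969), Tex35 (0.965), Mob3a (0.961) and Tmem198b (0.957). With 9 arrays and this many candidates, such r values describe the ranking only.

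**Figure D3:**
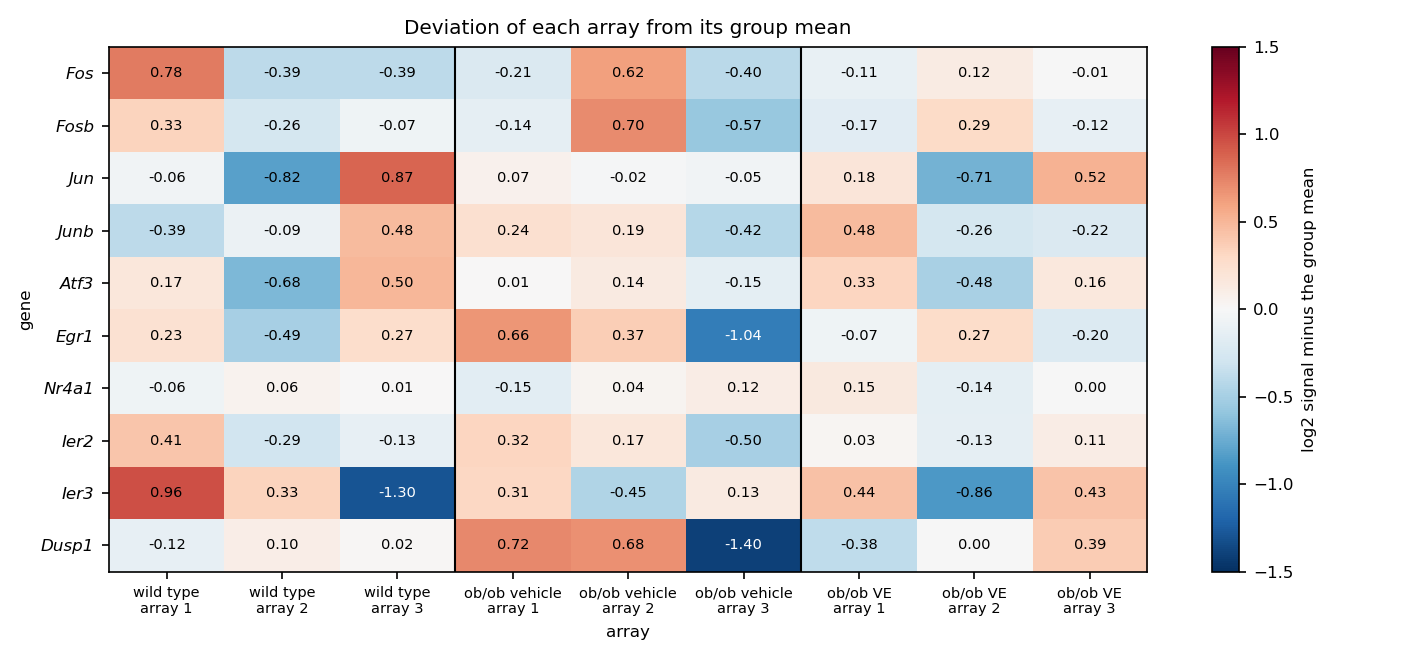
Deviation of each of the 9 arrays from its own group mean (log2, colour and printed value) for the 10 genes in rows, with lines between the groups. The column of ob/ob vehicle array 3 is below 0 for most genes, down to -1.40 for Dusp1, and the wild type values of Ier3 run from 0.96 to -1.30.

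Genes related to these, in lists of the same pathway, were read in the same way. Their counts stand beside 9.02% of all clusters higher and 5.05% lower in ob/ob vehicle against wild type, and 12.4% higher and 7.58% lower with VE. These shares belong to the fit of all 9 arrays. Shares of all clusters in the fits with arrays left out are not given here. Whether a change of count in those fits is particular to a list therefore cannot be read from them. Of 12 other AP-1 and small Maf genes, 11 were measured, and 1 passed in ob/ob vehicle against wild type, Maff, higher by 1.82 ± 0.413 (adjusted p = 0.0159). Maff, a small Maf protein without a transactivation domain, was also higher with VE (1.84, adjusted p = 0.0122). The first call was lost when array 1 or 2 of ob/ob vehicle or array 1 of wild type was left out, and without wild type arrays 1 and 2 together (0.85, adjusted p = 0.235), and the second without VE array 1 and without wild type arrays 1 and 2 together (0.87, adjusted p = 0.193). The median of the 11 was 0.20 for ob/ob vehicle and 0.08 for VE. Without wild type arrays 1 and 2 it was -0.09 and 0.13, and 0 of 11 passed in each comparison. The nearest Fos and Jun relatives did not pass: Fosl1 lay 0.43, Fosl2 0.20 and Jund 0.22 from wild type in ob/ob vehicle, with adjusted p values of 0.540, 0.647 and 0.675. Between VE and ob/ob vehicle 0 of 11 passed, with Atf2 at -0.19 and Batf3 at 0.24 at the extremes of the test statistic.

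Egr2, the relative of Egr1 known for its roles in macrophages and in nerve sheath cells, passed as higher in both ob/ob groups. It read 8.72, 8.14 and 7.83 in wild type, 11.83, 12.01 and 9.70 in ob/ob vehicle, and 10.22, 10.01 and 10.18 with VE. All 6 ob/ob arrays were above wild type, and ob/ob vehicle array 3 was the lowest of its group, as for Egr1 and Dusp1. Of all clusters, 15.7% lay wholly above wild type in ob/ob vehicle and 19.5% with VE, and Egr2 was named for its test statistics. Egr2 was higher in ob/ob vehicle by 2.95 ± 0.533 (adjusted p = 0.00506), a call that held with each array left out in turn and without wild type arrays 1 and 2 together (3.35, adjusted p = 0.0176). With VE it was higher than wild type by 1.91 (adjusted p = 0.0312), which was lost without wild type array 2, wild type array 3 or any VE array, and without wild type arrays 1 and 2 together (2.31, adjusted p = 0.0682). It lay -1.04 ± 0.533 from ob/ob vehicle (adjusted p = 0.99995). It was 1 of 7 EGR, NR4A and Nab genes to pass in ob/ob vehicle. With VE, Nab1, a corepressor that binds EGR proteins, passed too (1.06, adjusted p = 0.0441), which makes 2 of 7; its call was lost when array 1 or 3 of wild type, array 2 of ob/ob vehicle or any VE array was left out. The median of the 7 was 0.17 and 0.11. Without wild type arrays 1 and 2 together 3 of 7 were higher in ob/ob vehicle and 2 of 7 with VE, with medians of 0.95 and 0.67. Egr3 lay 0.21, Nr4a2 -0.17 and Nr4a3 0.17 from wild type in ob/ob vehicle, with adjusted p values of 0.671, 0.856 and 0.817. For this list and those that follow, as for Atf3, 2 marker lists moved with the genotype on the same arrays. The macrophage markers were higher (13 of 14) and the epithelial markers lower (13 of 14) in each ob/ob group than in wild type. The part of either list was not tested.

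Of 31 names of other immediate early and feedback genes, 29 were measured (the other 2 are older names of Ccn1 and Ccn2). In ob/ob vehicle 6 of 29 were higher than wild type, beside 9.02% of all clusters, and 0 lower, beside 5.05%, with a median of 0.59. These were Plk2, Klf10, Klf6, Myc, Ccn1 and Gadd45b. Plk2, a polo-like kinase induced by growth factors and stress, read 7.06, 7.73 and 6.82 in wild type, 9.44, 11.04 and 10.03 in ob/ob vehicle, and 9.55, 9.52 and 9.49 with VE, a difference of 2.97 ± 0.390 for ob/ob vehicle (adjusted p = 8.28e-04). Klf10, a TGF-beta-inducible zinc finger repressor, read 8.34, 7.73 and 7.92, then 10.91, 9.98 and 9.69, then 10.06, 9.67 and 9.88, a difference of 2.20 ± 0.328 (adjusted p = 0.00177). Neither gene overlapped with wild type in either ob/ob group. Both were named for the highest test statistics of the list, so this adds no separate support. Of all clusters, 15.7% lay wholly above wild type in ob/ob vehicle and 19.5% with VE. With VE 6 of 29 were again higher, beside 12.4% of all clusters, and 0 lower, beside 7.58%, with a median of 0.71: Plk2 by 2.32, Klf10 by 1.87, and Klf6, Gadd45b, Rhob and Myc. The count for ob/ob vehicle ran from 2 (without ob/ob vehicle array 2) to 9 (without wild type array 3) as arrays were left out in turn, being 3 when array 1 of ob/ob vehicle or array 2 of wild type was left out, and was 3 without wild type arrays 1 and 2, with a median of 0.23. That for VE ran from 4 (without wild type array 2, VE array 2 or VE array 3) to 11 (without wild type array 3), and was 3 without wild type arrays 1 and 2, with a median of 0.24. Against ob/ob vehicle VE had 0 of 29, with Gadd45g at 0.93 and Plk2 at -0.65 at the extremes.

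Among 10 other MAP kinase phosphatases, in ob/ob vehicle 4 were higher than wild type and 1 lower, with a median of 0.85. The median was 1.05 without wild type arrays 1 and 2. The count higher was 2 when array 1 or 2 of ob/ob vehicle, array 1 of wild type or array 1 or 3 of VE was left out, and 6 when array 3 of ob/ob vehicle was. Dusp10, which prefers p38 and JNK, read 11.11, 9.96 and 10.78 in wild type, 13.16, 12.98 and 12.70 in ob/ob vehicle, and 12.14, 12.07 and 11.46 with VE. Its 3 groups did not overlap, with VE between the other 2 groups, but it was named for its test statistics in these comparisons. Of all clusters, 15.7% lay wholly above wild type in ob/ob vehicle and 19.5% with VE. With VE, 6.79% lay wholly below ob/ob vehicle. The difference was 2.33 ± 0.328 for ob/ob vehicle (adjusted p = 0.00125), 1.27 for VE against wild type (adjusted p = 0.0225) and -1.06 ± 0.328 for VE against ob/ob vehicle, which did not pass (adjusted p = 0.784). The VE call was lost without wild type array 2, VE array 1 or VE array 2, and without wild type arrays 1 and 2 together (1.11, adjusted p = 0.0718). Dusp9, an ERK phosphatase, was higher in ob/ob vehicle by 1.75 ± 0.347 (adjusted p = 0.00827) and Dusp14 lower by 1.19 on the log2 scale (adjusted p = 0.0259); the latter call was lost when array 2 or 3 of ob/ob vehicle or array 1 or 3 of wild type was left out. With VE the counts were again 4 higher and 1 lower, beside 12.4% and 7.58% of all clusters, with a median of 0.48. The count higher was 0 without VE array 1, and 0 without wild type arrays 1 and 2, where the median was 0.77. It was 1 when array 1 of wild type or array 2 of VE was left out, and 2 when array 2 of wild type, array 2 of ob/ob vehicle or array 3 of VE was. All 10 phosphatases were below 0 in VE against ob/ob vehicle, from -0.04 for Dusp7 to -1.06 for Dusp10 with a median of -0.33, and 0 of 10 passed. Over all clusters, 10379 of 19572 were below 0, with a median of -0.02. The 10 phosphatases are read on the same 6 arrays and do not count as 10 separate observations. Dusp5, an ERK phosphatase, read 12.68, 13.02 and 6.95 in wild type against 7.96 to 9.52 on the ob/ob arrays, and so followed the same split of the wild type arrays as Ier3; it was singled out after its values were seen.

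Upstream of the immediate early genes, 18 of 26 listed kinases and transcription factors were measured, and 2 were higher and 0 lower in ob/ob vehicle, with a median of 0.34. The count higher was 1 and the median 0.07 when arrays 1 and 2 of wild type were left out. Map2k3, a kinase that activates p38, was higher by 1.44 ± 0.292 (adjusted p = 0.00926), a call lost without wild type arrays 1 and 2 together (1.37, adjusted p = 0.0703). Elk3, an SRF partner, was higher by 1.21 ± 0.307 (adjusted p = 0.0269), a call lost without wild type array 2 or any ob/ob vehicle array. Srf itself lay 1.25 above wild type (adjusted p = 0.0943) and Creb1 -0.54 from it (adjusted p = 0.293). With VE 3 were higher and 1 lower, with a median of 0.45; with the same arrays left out, these were 2 and 0, and the median was 0.19. Map2k2, an ERK kinase, was higher by 1.86 (adjusted p = 0.00194) and Map2k3 by 1.67 (adjusted p = 0.00358), while Braf, a RAF kinase, was lower, at -0.86 (adjusted p = 0.0410). The call of Braf was lost in 7 of the 9 fits with 1 array left out, all but those without wild type array 3 or VE array 2, and without wild type arrays 1 and 2 together (-0.57, adjusted p = 0.308).

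Heat shock genes, which also respond to the handling of tissue, were listed as a second readout of stress. Of 12, 9 were measured, and 1 was higher and 2 lower in ob/ob vehicle, with a median of 0.23. Hspb1, a small heat shock protein, read 7.64, 7.76 and 8.40 in wild type, 11.51, 10.49 and 10.84 in ob/ob vehicle, and 12.06, 12.09 and 12.25 with VE. It was higher in ob/ob vehicle by 3.01 ± 0.308 (adjusted p = 1.94e-04) and with VE by 4.20 (adjusted p = 3.08e-05). All 3 VE values were above the ob/ob vehicle values, a difference of 1.19 ± 0.308 that did not pass (adjusted p = 0.589). Of all clusters, 5.77% lay wholly above ob/ob vehicle with VE, and Hspb1 was named for its test statistic. The inducible HSP70 genes went down: Hspa1a lay -1.53 (adjusted p = 0.00861) and Hspa1b -2.04 (adjusted p = 0.0373) from wild type in ob/ob vehicle. Without wild type arrays 1 and 2 these were -0.82 (adjusted p = 0.111) and -0.56, and neither passed. The call of Hspa1b was also lost in 8 of the 9 fits with 1 array left out, all but that without wild type array 3. Near-identical copies such as this pair can share probes, so their values are uncertain as separate genes. With VE 2 were higher and 1 lower, with a median of 0.27 (1 and 0 without wild type arrays 1 and 2, with a median of 0.15), Hsp90aa1 being the other one higher (1.32, adjusted p = 0.0364) and Hspa1a the lower one (-1.55, adjusted p = 0.00662). The former call was lost when array 1 of wild type, array 2 of ob/ob vehicle or any VE array was left out, and without wild type arrays 1 and 2 together neither passed (1.27, adjusted p = 0.106, and -0.85, adjusted p = 0.0866).

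**Figure D4:**
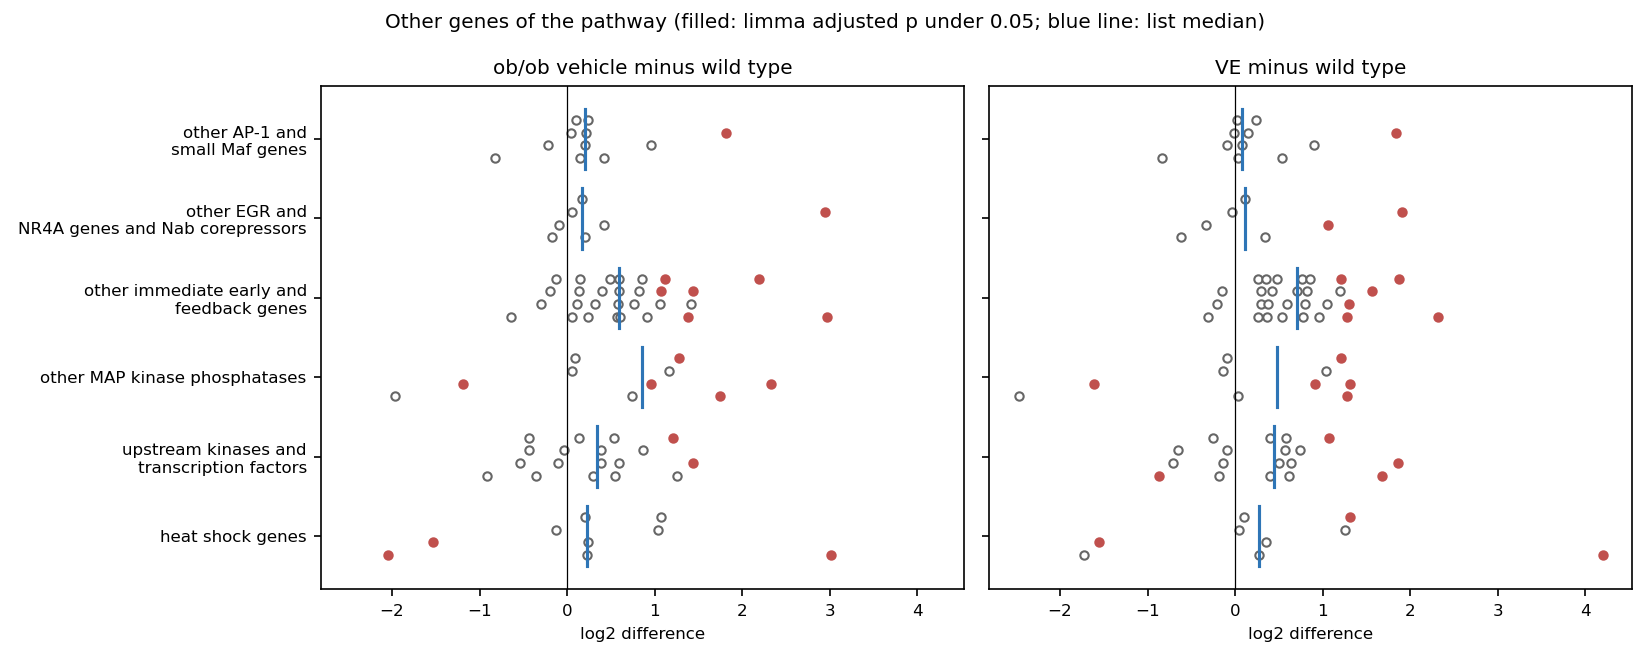
Log2 difference from wild type (x axis) of every measured gene of the 6 related lists (rows), for ob/ob vehicle in the left panel and VE in the right; each point is a gene, filled where the limma adjusted p was under 0.05, and the blue line is the list's median. The filled points of the other immediate early and feedback genes all lie above 0, up to 2.97 for Plk2, and Hspb1 stands at 3.01 and 4.20.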

How the data were processed

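Total RNA of white adipose tissue (100 ng per sample, per the series' design text) was hybridized to 9 Clariom S mouse arrays for 16 hours. The deposited table holds log2 values, 1 per transcript cluster and array, normalized by the authors with SST-RMA, a robust multi-array average after a signal space transformation. Their software was Transcriptome Analysis Console, whose version is 4.0.2 in the design text and 4 in the submitters' processing notes. The values were used as deposited, and precision is limited by how few arrays there are. Of 22206 clusters, 19572 with 1 gene symbol in the platform annotation were tested, and 2634 without one were not.

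In R 4.3.3, limma 3.58.1 fitted a mean for each of the 3 groups to all 9 arrays together, with moderated variances and two-sided tests. In each comparison the Benjamini-Hochberg adjustment covered all 19572 clusters, and a call is an adjusted p under 0.05. The scripts were tested on simulated data. The members and the gene lists were chosen with earlier results of these data known. Named genes were all 10 members and, of each other list, the called genes with the 2 highest and 2 lowest moderated t (the extremes where none was called). Relatives given beside them for comparison, and Dusp5, were named after their values were seen. The authors' own threshold, an unadjusted p under 0.05 with a fold over 1.1, was an alternative. Detection filters and scanner files were not used here. Replicate numbers were not used as pairs in the main fit, and the labels do not say whether they pair arrays. Same-numbered arrays of different groups had correlations of deviations from -0.06 to 0.18, and 6 of 9 arrays correlated best with their own number. Whether the numbers stand for a pairing is therefore not settled here.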

Additional observations from a re-analysis of the deposited data

How the results depend on the processing

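Atf3 passed against wild type in both ob/ob groups under every setting run, at 3.40 to 4.16 for ob/ob vehicle and 2.90 to 3.66 for VE, and 0 of the 10 genes passed between VE and ob/ob vehicle under any of them. The other counts changed. In ob/ob vehicle, the genes higher than wild type fell from 2 to 1, the loss being Dusp1, with only the 2 groups compared, with array weights, after quantile normalization and with every cluster tested, and also without wild type arrays 1 and 2, a setting chosen after seeing the data. Genes higher with VE than in wild type were 2 with only the 2 groups compared and at the submitters' threshold. Genes lower with VE were 1 with only the 2 groups compared, with a trended prior, after quantile normalization and after median centring, and 0 with array weights and without wild type arrays 1 and 2. At the submitters' threshold 2 were lower in ob/ob vehicle, and 5 of 10 passed in the test of the 3 groups together. With 1 array left out at a time, the counts in ob/ob vehicle ran from 1 to 2 higher and 0 to 1 lower, those with VE from 1 to 2 higher and 0 to 2 lower, and the F test from 1 to 3. The share of all clusters that passed in the fits with arrays left out is not given here.

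Some directions turned, none of them of a difference called with all 9 arrays. After quantile normalization Fos lay -0.049 and Junb -0.10 from wild type with VE, and after median centring Ier2 lay 0.013 from ob/ob vehicle with VE. Without wild type arrays 1 and 2, Jun was -0.58, Junb -0.0067 and Ier3 0.55 in ob/ob vehicle, and Junb -0.43 and Ier3 0.36 with VE; Ier3 lay -0.75 and -0.93 from wild type with all arrays, and was called lower without wild type array 3. With 1 array left out, the difference of VE from ob/ob vehicle ran from -0.37 to 0.15 for Fos, -0.25 to 0.16 for Ier2, -0.41 to 0.25 for Ier3 and -1.04 to 0.023 for Dusp1. That of VE from wild type ran from -0.54 to 0.31 for Jun and -0.19 to 0.29 for Junb, and that of ob/ob vehicle from -0.12 to 0.73 for Jun. The cause of these changes was not tested.

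With the replicate number as a block, 1 gene was higher in ob/ob vehicle (Dusp1 lost, adjusted p = 0.0698), and no other count of calls changed; 6 of 9 arrays correlated best with their own number. No other background correction was run, since scanner files were not used here, so signal over background is not given either.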
